A study of Homo sapiens with 12 samples.

Results

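Genes of transforming growth factor beta (TGF-beta) signaling were examined in A375 human melanoma cells that express mutant forms of the transcriptional co-activator YAP. The 10 genes were 3 TGF-beta ligands (TGFB1, TGFB2 and TGFB3), the activin subunit INHBA, both TGF-beta receptors (TGFBR1 and TGFBR2), the signal transducer SMAD3, the inhibitors SMAD7 and SKIL, and the induced matrix gene TGFBI. A gene was read from the locus whose symbol list holds its name, and each of the 10 genes was found on 1 locus among the 31585 distinct loci of the table. The 4 groups of cells, with 3 libraries each, were stably transduced with an empty hygromycin vector (Control), YAP-S127A, YAP-S94A,S127A or YAP-2SA. YAP-S127A carries 1 serine-to-alanine change at a site phosphorylated by LATS kinases, YAP-S94A,S127A carries the additional S94A change in the TEAD-binding part of YAP, and YAP-2SA carries S127A and S381A at LATS sites. All 4 groups are A375 cells in medium with serum, so the cells of every group, Control included, met serum factors. The study describes the 3 RNA samples of a group as independent, without saying whether they came from separate transductions, and the p-values measure the spread between these samples. The titles of the YAP-2SA libraries list S127A and S381A, whereas their condition field also lists S94A, and they were taken by title. The series text gives 24 h of culture and the study's methods a longer time.

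TGF-beta ligands are secreted in a latent form bound to matrix proteins and are released by integrins or proteases. An active dimer binds TGFBR2, which recruits and phosphorylates TGFBR1, and TGFBR1 then phosphorylates SMAD2 and SMAD3, which enter the nucleus with SMAD4. Activins, dimers of inhibin beta subunits such as INHBA, use other receptors but the same SMADs. Induced genes include inhibitors that close a feedback loop, among them SMAD7, SKIL, PMEPA1 and BAMBI. In melanoma, TGF-beta signaling is known both to restrain proliferation and to accompany invasive states, and YAP with its DNA-binding partners, the TEAD factors, is known to share target genes with the SMADs.

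The deposited values are log2(FPKM + 1) for each locus, and FPKM counts fragments per length of transcript and per mapped read. They carry no read numbers, and the depth of the libraries is unknown. From 20161 to 20656 loci had a value above 0 in a library. Differences are given as log2(FPKM + 1), where the added 1 shrinks those of low genes, beside the ratio of group mean FPKM, which has no pseudocount. The test was limma across the 15055 loci that reached 1 FPKM in 3 or more libraries, and a gene is described as called at a Benjamini-Hochberg adjusted p under 0.05 with a ratio over 2 in either direction. YAP1 stood at 34.1 and 33.0 FPKM in Control replicates 1 and 2, at 172 in the library labelled Control replicate 3, and between 130 and 187 in the 9 libraries with mutant YAP. Results with Control are therefore also given without the library labelled Control replicate 3 where that changes them. Of the melanocyte lineage markers, SOX10 was between 188 and 287 FPKM in Control, YAP-S94A,S127A and YAP-S127A and between 4.53 and 7.25 in YAP-2SA, S100B was between 30.0 and 51.7 in the former 3 groups and at 1.03 or less in YAP-2SA, MITF went the other way, from 5.01 to 11.02 in Control to 30.1 to 41.0 in YAP-2SA, and the pigment genes PMEL, MLANA, TYR and DCT were at 0.580 or less in every library. EPCAM, CDH1, PTPRC, CD3E, PECAM1 and VWF were at 0.149 or less everywhere. LYZ, from the leukocyte list, was at 14.3 to 16.8 in Control and 2.35 to 2.77 in YAP-2SA. CDH5, from the endothelial list, was at 0.08 to 0.18 in Control and 0.40 to 0.53 in YAP-2SA. From the epithelial list, KRT14 was at 6.16 to 7.62 in Control and 0.362 to 0.551 in YAP-2SA, and KRT5 at 0.0777 or less in Control and 1.37 to 1.67 in YAP-2SA. KRT19, from the same list, was at 1.12 to 1.38 in Control and 0.617 to 1.09 in YAP-2SA.

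The 10 genes moved in both directions. In YAP-2SA against Control, the ligand gene TGFB2 rose, TGFB3 and INHBA fell, and 3 of the 10 genes were called, against 15.5% of all loci tested. With the adjusted p alone, 8 of the 10 passed, 3 higher and 5 lower, against 42.3% of all loci. The median difference of the 10 genes was -0.34 and that of all loci was 0.01. In YAP-S127A against Control 1 gene, TGFB2, was called, against 2.47% of loci, and 2 passed on the adjusted p, against 6.31%. TGFB2 reached 1 FPKM only in YAP-2SA and in 1 YAP-S127A library. With only the 6 libraries compared it was not tested, and 0 genes were called. In YAP-S94A,S127A against Control 0 were called and 0 passed on the adjusted p, against 0.173% and 0.179% of loci, and 0 of the 10 had an unadjusted p under 0.05 in limma.

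**Figure D1:**
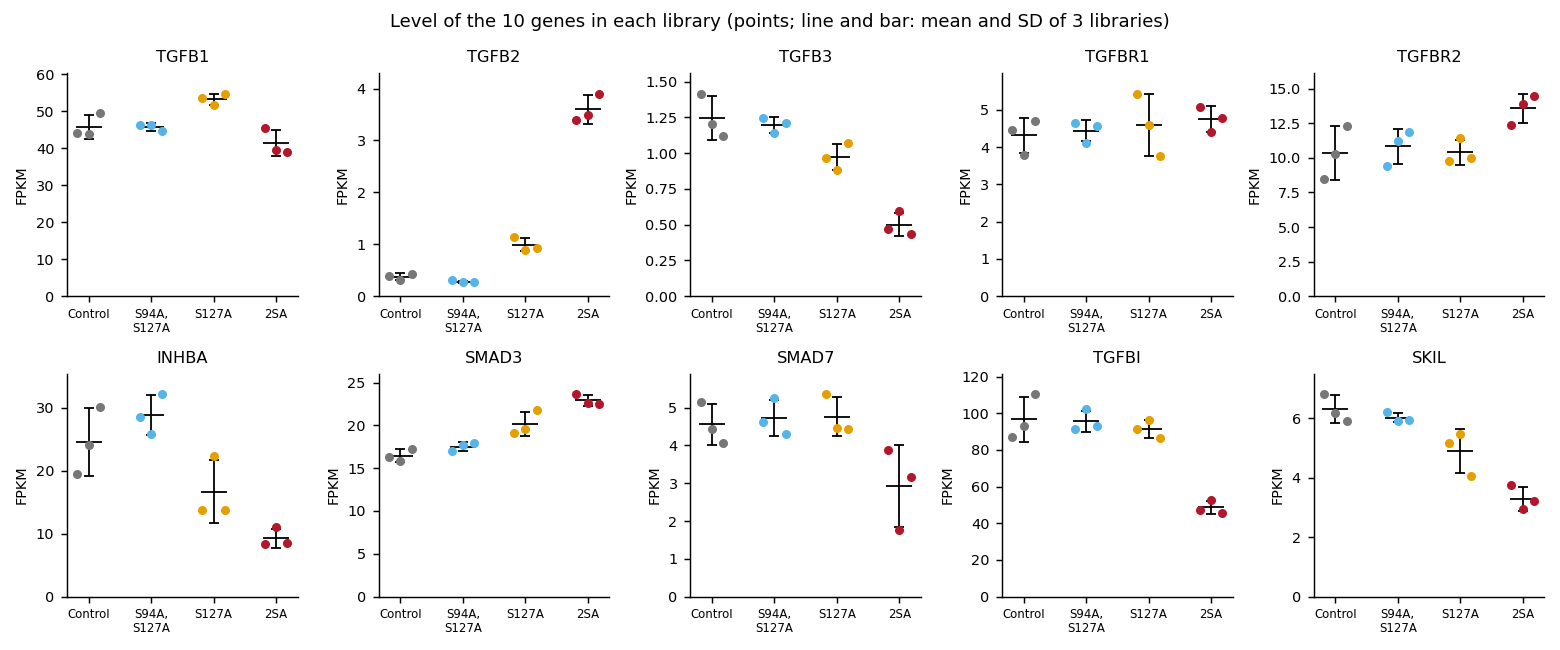
FPKM (y axis, from 0) of each of the 10 genes in each of the 12 libraries, by group (x axis); the line and bar give the mean and SD of 3 libraries. TGFB2 is highest in the 3 YAP-2SA libraries, at 3.39 to 3.90 FPKM, and TGFBI, SKIL, INHBA and TGFB3 are lowest there, whereas the TGFBR1 points of all 4 groups overlap.

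The TGFB2 gene lies at 1:218518678-218617961 on the plus strand (GRCh37). Its promoter and that of INHBA are shown because these genes had the largest rise and the largest fall of the 10 genes and because YAP binds DNA through TEAD factors, whose core motif GGAATG was searched on both strands. The sequences are RefSeq promoters of build GRCh38.p14, from 250 bases before to 50 bases after the annotated start, chr1:218345086-218345385 on the plus strand and chr7:41703041-41703340 on the minus strand. Capitals mark a match to the TEAD core, here its reverse complement.
TGFB2: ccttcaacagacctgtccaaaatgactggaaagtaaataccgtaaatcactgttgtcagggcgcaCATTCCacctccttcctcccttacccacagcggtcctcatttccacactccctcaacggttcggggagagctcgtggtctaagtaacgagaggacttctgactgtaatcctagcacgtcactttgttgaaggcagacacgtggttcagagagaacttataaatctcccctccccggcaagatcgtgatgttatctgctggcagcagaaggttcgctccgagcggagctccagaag
INHBA: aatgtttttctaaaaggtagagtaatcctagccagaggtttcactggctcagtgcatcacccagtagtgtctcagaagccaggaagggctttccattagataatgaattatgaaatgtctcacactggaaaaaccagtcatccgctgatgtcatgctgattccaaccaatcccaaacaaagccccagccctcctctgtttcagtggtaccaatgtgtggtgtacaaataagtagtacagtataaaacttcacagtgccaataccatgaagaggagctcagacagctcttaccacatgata
The TGFB2 window holds 1 match, whose first base is 185 bases before the start, and the INHBA window holds 0. All 10 genes had a promoter in the table, some with several windows, and 1 of the 8 TGFBR1 windows was the only other window with a TEAD core. Of 35116 windows of the same length, 14.03% held the motif. The AP-1 motif TGANTCA was in 1 of the 2 TGFBR2 windows, in 1 of the 5 SMAD3 windows and in 7.71% of all windows. The palindromic SMAD motif GTCTAGAC was in 0 windows of the 10 genes and in 0.202% of all windows. A match is a string of letters and no binding was measured here.

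TGFB2 encodes a TGF-beta ligand that needs a co-receptor to bind TGFBR2 tightly. It was measured at 0.397, 0.308 and 0.426 FPKM in Control and at 0.304, 0.275 and 0.266 in YAP-S94A,S127A. It was at 1.13, 0.899 and 0.935 in YAP-S127A and at 3.39, 3.49 and 3.90 in YAP-2SA. None of the 4 groups overlapped, and the order of the means was YAP-S94A,S127A, Control, YAP-S127A and YAP-2SA. The rise in YAP-2SA over Control was 9.55-fold (1.74 ± 0.08, SE, on the log2 scale, n = 3, limma adjusted p = 5.31e-08). The rise in YAP-S127A over Control was 2.63-fold (0.53 ± 0.08, limma adjusted p = 0.00382), and YAP-2SA exceeded YAP-S127A 3.64-fold (1.21 ± 0.08, limma adjusted p = 1.78e-06). YAP-S94A,S127A against Control differed by -0.10 (95% interval -0.29 to 0.09, limma adjusted p = 1), whereas YAP-S127A exceeded YAP-S94A,S127A, which differs from it by the S94A change alone, 3.51-fold (0.63 ± 0.08, limma adjusted p = 0.000927). TGFB2 entered the test only through the 3 YAP-2SA libraries and YAP-S127A replicate 1, the 4 libraries at 1 FPKM or more, and it was below 1 FPKM in the other 8, so that fits of only the 6 libraries of YAP-S127A and Control, or of YAP-S127A and YAP-S94A,S127A, did not test it. With 0.1 added in place of 1, the same differences were 2.96 in YAP-2SA and 1.19 in YAP-S127A. TGFB2 belongs to a published YAP gene set that the study used, so it was a known candidate for this pattern.

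TGFB3, the third ligand, was measured at 1.42, 1.20 and 1.12 FPKM in Control and at 1.24, 1.14 and 1.21 in YAP-S94A,S127A. It was at 0.963, 0.886 and 1.07 in YAP-S127A and at 0.472, 0.592 and 0.436 in YAP-2SA. The YAP-2SA libraries were below all others, the YAP-S127A libraries lay in between, and the Control and YAP-S94A,S127A libraries overlapped. TGFB3 fell 2.49-fold in YAP-2SA against Control (-0.58 ± 0.09, n = 3, limma adjusted p = 0.000285). In YAP-2SA against YAP-S127A the fold was 1.94 (-0.40 ± 0.09, limma adjusted p = 0.00519), past the p threshold and short of the fold threshold, and TGFB3 was called without YAP-S127A replicate 2 or YAP-2SA replicate 2. TGFB3 is on the down-regulated signature that the study built in part from these libraries, which makes its fall no independent evidence. YAP-S127A against Control gave -0.19 (limma adjusted p = 0.267). No YAP-2SA library reached 1 FPKM, and TGFB3 entered the test through 7 libraries of the other groups.

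TGFB1, the most abundant of the 3 ligands per length of transcript, ranged from 39.1 to 54.7 FPKM over the 12 libraries. Its means were 45.8 ± 3.28 FPKM (SD, n = 3) in Control, 45.7 ± 1.04 in YAP-S94A,S127A, 53.3 ± 1.51 in YAP-S127A and 41.4 ± 3.58 in YAP-2SA. The YAP-S127A libraries, at 51.7 to 54.7 FPKM, were above all others, and the other 3 groups overlapped. TGFB1 fell by 0.36 ± 0.07 on the log2 scale in YAP-2SA against YAP-S127A (limma adjusted p = 0.00224). Neither YAP-2SA nor YAP-S127A differed from Control at the threshold (-0.14 and 0.21, limma adjusted p = 0.114 and 0.102), although the first gave 0.0251 without YAP-2SA replicate 1 and 0.0388 with quantile normalization.

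The sum of the 3 ligands was higher in the YAP-S127A libraries than in all others, and its makeup differed most in YAP-2SA. It was 47.5 ± 3.22 FPKM in Control, 47.2 ± 1.04 in YAP-S94A,S127A, 55.3 ± 1.63 in YAP-S127A and 45.5 ± 3.37 in YAP-2SA. TGFB2 made up 0.677% to 0.866% of this sum in Control, 0.576% to 0.636% in YAP-S94A,S127A, 1.65% to 2.04% in YAP-S127A and 6.87% to 8.99% in YAP-2SA. TGFB3 made up 2.19% to 3.09% in Control and 0.956% to 1.36% in YAP-2SA. TGFB1 thus remained at 90.0% or more of the sum in each library. These shares follow from the TGFB2 and TGFB3 values above and were not tested.

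INHBA encodes the subunit of activin A and lies at 7:41706766-41745432 on the minus strand (GRCh37). It was measured at 19.5, 24.1 and 30.2 FPKM in Control and at 28.5, 25.9 and 32.2 in YAP-S94A,S127A. It was at 13.8, 22.4 and 13.8 in YAP-S127A and at 8.35, 11.03 and 8.45 in YAP-2SA. The YAP-2SA libraries were below all others, and YAP-S127A replicate 2 lay within the Control range while its group mates lay below it. INHBA fell 2.65-fold in YAP-2SA against Control (-1.31 ± 0.20, n = 3, limma adjusted p = 0.000388). It fell by 0.76 ± 0.20 on the log2 scale in YAP-2SA against YAP-S127A (limma adjusted p = 0.0150) and by 0.79 ± 0.20 in YAP-S127A against YAP-S94A,S127A (limma adjusted p = 0.0329). The last was not past the threshold under 7 of 14 alternatives, with adjusted p between 0.0524 and 0.120 there. Without YAP-2SA replicate 1 or 3 the adjusted p of YAP-2SA against YAP-S127A was 0.0534 and 0.0543. YAP-S127A against Control gave -0.55 (limma adjusted p = 0.159), and 0.0334 without YAP-S127A replicate 2.

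TGFBR1, the type I receptor, ranged from 3.76 to 5.44 FPKM with all groups overlapping, and no difference passed in any of the 5 comparisons (limma adjusted p between 0.440 and 1). In YAP-2SA against Control its difference was 0.12, with a 95% interval from -0.13 to 0.37. TGFBR2, the ligand-binding type II receptor, was measured at 8.48, 10.3 and 12.3 FPKM in Control and at 12.4, 13.9 and 14.4 in YAP-2SA. The lowest YAP-2SA library was just above the highest Control library, and YAP-S94A,S127A (9.40 to 11.9) and YAP-S127A (9.78 to 11.4) overlapped Control. TGFBR2 was 1.31-fold higher in YAP-2SA than in Control (0.37 ± 0.13, limma adjusted p = 0.0375), and was not past the threshold under 6 of 14 alternatives, with adjusted p between 0.0530 and 0.133. In YAP-2SA against YAP-S127A the ratio was 1.30 (limma adjusted p = 0.0560).

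SMAD3, the receptor-activated transducer, was measured at 16.3, 15.9 and 17.3 FPKM in Control and at 17.0, 17.7 and 17.9 in YAP-S94A,S127A. It was at 19.1, 19.6 and 21.8 in YAP-S127A and at 23.7, 22.6 and 22.5 in YAP-2SA. YAP-2SA was above YAP-S127A and YAP-S127A above both other groups without overlap, whereas Control and YAP-S94A,S127A overlapped. SMAD3 rose 1.39-fold in YAP-2SA against Control (0.45 ± 0.06, n = 3, limma adjusted p = 0.000111) and 1.22-fold in YAP-S127A against Control (0.28 ± 0.06, limma adjusted p = 0.0197). The second was not past the threshold under 4 of 14 alternatives, with adjusted p between 0.0507 and 0.166. The 1.14-fold difference of YAP-2SA over YAP-S127A (0.18 ± 0.06, limma adjusted p = 0.0399) was not past it under 8 of 14.

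SMAD7 encodes an inhibitory SMAD that blocks TGFBR1. It was measured at 5.16, 4.45 and 4.07 FPKM in Control and at 3.89, 1.76 and 3.16 in YAP-2SA, and YAP-S94A,S127A (4.30 to 5.25) and YAP-S127A (4.45 to 5.37) overlapped Control. The 3 YAP-2SA libraries were below all others but spread widely, with replicate 2 lowest. SMAD7 fell by 0.53 ± 0.18 on the log2 scale in YAP-2SA against Control (limma adjusted p = 0.0366), and the adjusted p lay between 0.0520 and 0.112 under the 6 of 14 alternatives that ended this result. Without YAP-2SA replicate 2 the difference was -0.30 (limma adjusted p = 0.0906).

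SKIL encodes SnoN, a co-repressor of the SMADs. It was measured at 6.83, 6.19 and 5.92 FPKM in Control and at 6.21, 5.92 and 5.95 in YAP-S94A,S127A. It was at 5.16, 5.49 and 4.05 in YAP-S127A and at 3.74, 2.94 and 3.21 in YAP-2SA. The 2 former groups overlapped, YAP-S127A lay below them and YAP-2SA below all others. SKIL was 1.91-fold lower in YAP-2SA than in Control (-0.77 ± 0.10, limma adjusted p = 0.000152), over the fold threshold only without YAP-2SA replicate 1, and 1.49-fold lower than in YAP-S127A (-0.45 ± 0.10, limma adjusted p = 0.00711). YAP-S127A against Control gave -0.32 (limma adjusted p = 0.116).

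TGFBI encodes a secreted matrix protein named for its induction by TGF-beta. It was measured at 86.8, 92.8 and 111 FPKM in Control and at 91.5, 102 and 93.0 in YAP-S94A,S127A. It was at 91.5, 96.1 and 86.5 in YAP-S127A and at 47.2, 52.9 and 45.8 in YAP-2SA. The first 3 groups overlapped and the YAP-2SA libraries were all below them. TGFBI was 1.99-fold lower in YAP-2SA than in Control (-0.97 ± 0.09, n = 3, limma adjusted p = 9.57e-06), at the edge of the fold threshold, and 1.88-fold lower than in YAP-S127A (-0.90 ± 0.09, limma adjusted p = 2.99e-05). It was called with median-ratio scaling, with quantile normalization, and without Control replicate 1, Control replicate 2 or YAP-2SA replicate 2. YAP-S127A against Control gave -0.08 (95% interval -0.28 to 0.13).

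**Figure D2:**
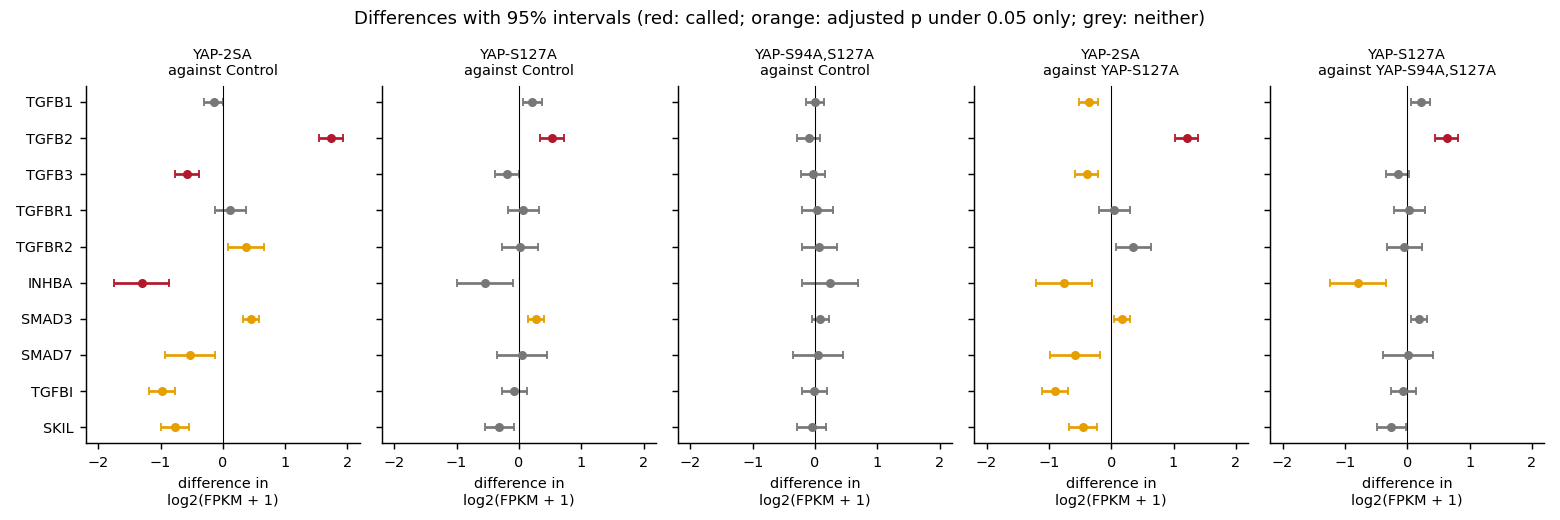
Difference in log2(FPKM + 1) (x axis) of each of the 10 genes (y axis) in the 5 comparisons, with 95% intervals from limma; red marks called genes, orange an adjusted p under 0.05 alone and grey neither. TGFB2 is the only gene called in 4 comparisons, and all intervals of YAP-S94A,S127A against Control include 0.

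Set side by side, the comparisons differed in how many of the 10 genes passed. In YAP-2SA against YAP-S127A 1 gene, TGFB2, was called against 11.1% of loci, and 8 passed on the adjusted p, 2 higher and 6 lower, against 32.8%. In YAP-S127A against YAP-S94A,S127A 1 gene, TGFB2, was called against 3.49% of loci, and 2 passed on the adjusted p, against 10.7%. There too TGFB2 was not tested with only the 6 libraries compared, and 0 genes were called. The comparisons share libraries, so their values are not independent of each other. Without the library labelled Control replicate 3 the counts of called genes in the 3 comparisons with Control were as before. Which loci tracked each extreme gene was described over the 12 libraries by Pearson's r of log2(FPKM + 1). TGFB2 was most like HHLA1 (0.999), ANXA3 (0.996), TLE4 (0.996), a locus listing AX747527 and MYO5B (0.996) and AOX1 (0.996). INHBA was most like GALNT5 (0.988), HBP1 (0.986), FBXO38 (0.982), PRKAR1A (0.980) and LPAR6 (0.978). The 12 points of each fall into the 4 groups and share their libraries.

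Beyond the 10 genes, 74 other genes of the pathway were read from 4 lists, chosen with earlier results of these data known. Of the 74 genes, 62 were tested, and their counts are a description. In YAP-2SA against Control 13 were called higher and 15 lower, against 7.59% and 7.86% of all loci, and the median difference of the 62 was -0.02. In YAP-S127A against Control 5 of the 62 were called, all higher, against 2.47% of loci. In YAP-S94A,S127A against Control limma called 0, against 0.173% of loci, with 2 of the 62 and 661 of the 15055 loci at an unadjusted p under 0.05. In YAP-2SA against YAP-S127A 18 were called, 7 higher and 11 lower, against 11.1% of loci, and in YAP-S127A against YAP-S94A,S127A 7 were called, 6 higher and 1 lower, against 3.49%. Without the library labelled Control replicate 3, the called genes were 27 in YAP-2SA against Control and 4 in YAP-S127A against Control. In the former FN1 and SMURF2 lost their calls and ACTA2 gained one, and in the latter PDGFB lost its call. PDGFB in YAP-S127A against Control lost its call under 9 of 14 alternatives, the omission of any single Control library among them. FN1 in YAP-2SA against Control lost its call under 5 of 14, the omission of any single YAP-2SA library among them. FN1 was at 10.7, 10.5 and 22.9 FPKM in Control replicates 1, 2 and 3. Its difference was -0.52 without the library labelled Control replicate 3. Under the other alternatives that ended its call it was between -0.90 and -0.85.

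**Figure D3:**
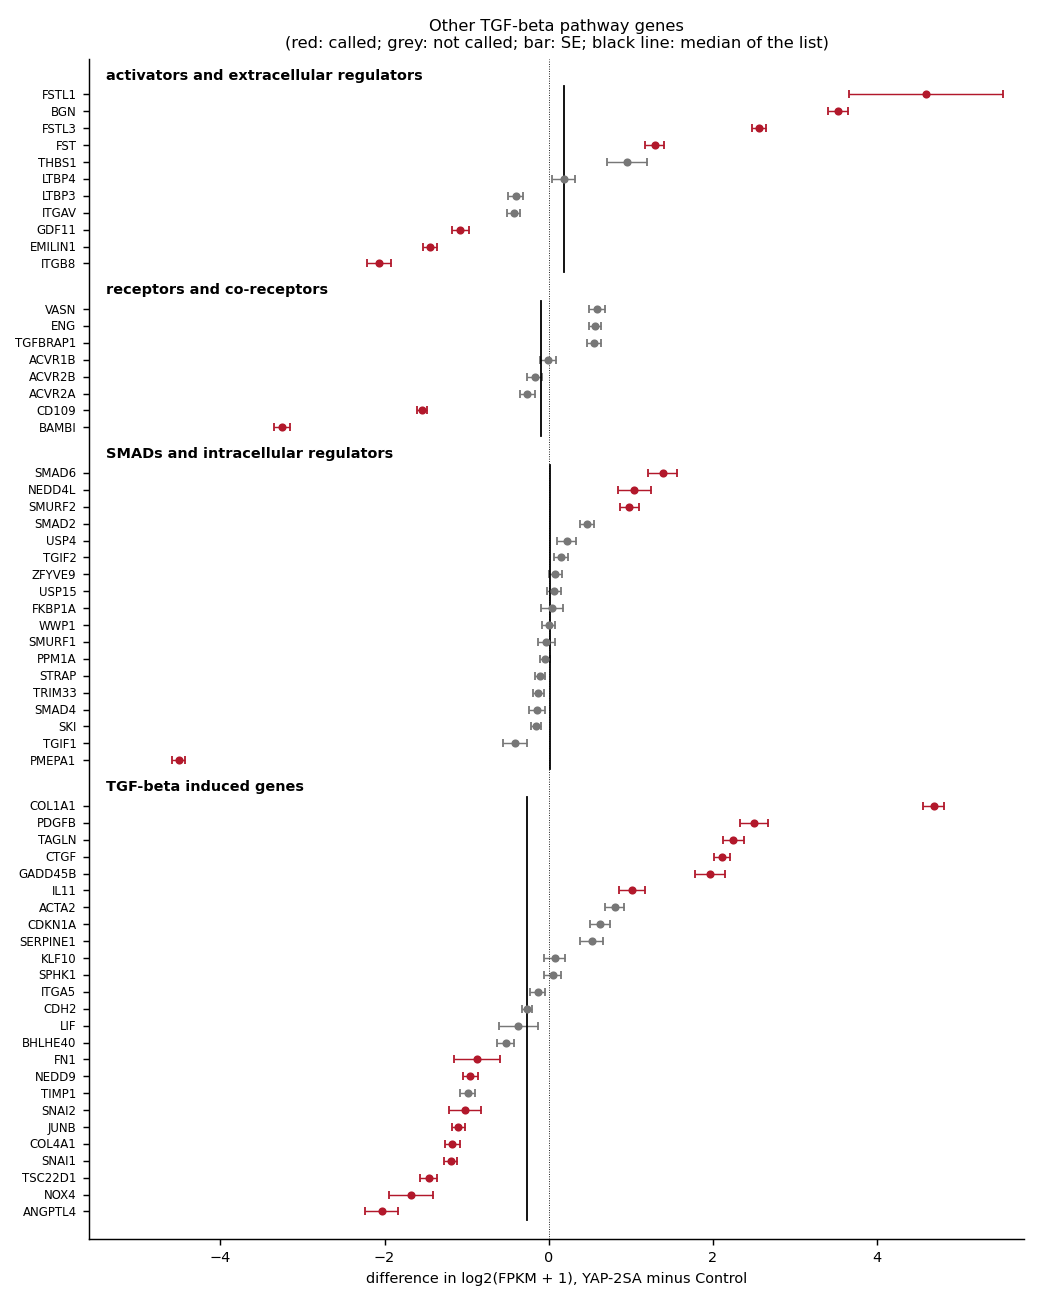
Difference in log2(FPKM + 1), YAP-2SA minus Control (x axis), of the 62 tested genes of 4 pathway lists (y axis), with SE; red marks called genes, grey genes not called, and the black line the median of each list. Genes of each list lie on both sides of 0, with COL1A1 at 4.70 and PMEPA1 at -4.51 at the extremes.

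Among activators and extracellular regulators, 11 of 19 genes were tested. Of these, 4 were called higher and 3 lower in YAP-2SA against Control (7.59% and 7.86% of all loci), with a median difference of 0.18. BGN, the matrix proteoglycan biglycan, which binds TGF-beta, was at 8.47, 8.83 and 11.4 FPKM in Control, at 31.0 to 37.3 in YAP-S127A and at 125, 131 and 106 in YAP-2SA. FSTL3, a secreted inhibitor of activins, was at 9.24, 10.7 and 11.2 FPKM in Control, at 27.0 to 27.6 in YAP-S127A and at 70.7, 69.4 and 59.2 in YAP-2SA. No YAP-2SA library overlapped any other group for either gene, and YAP-S94A,S127A stayed at 7.04 to 8.29 FPKM for BGN and 9.32 to 10.8 for FSTL3. BGN rose 12.6-fold (3.53 ± 0.12, limma adjusted p = 3.97e-09) and FSTL3 6.41-fold (2.57 ± 0.09, limma adjusted p = 3.30e-09) in YAP-2SA against Control. FST, which encodes follistatin, another activin inhibitor, rose 2.46-fold in the same comparison, from 39.1 to 55.6 FPKM in Control to 110 to 122 in YAP-2SA. The FPKM of FST and FSTL3 together was 2.21 to 2.48 times that of INHBA in Control, 1.68 to 2.02 times in YAP-S94A,S127A, 4.12 to 6.53 times in YAP-S127A and 17.4 to 21.7 times in YAP-2SA. This ratio was formed after the values of its genes were seen and was not tested. The study counts FSTL3 among established YAP/TAZ target genes, so FSTL3 was a known candidate for a rise.

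The FSTL1 locus, which also lists the microRNA MIR198, was at 2.63, 2.56 and 5.03 FPKM in Control and at 93.7, 109 and 106 in YAP-2SA. It was at 2.92, 84.0 and 3.08 in YAP-S94A,S127A, where replicate 2 stood apart at nearly the YAP-2SA level. Its difference in YAP-2SA against Control, 4.60, therefore had an SE of 0.94 (limma adjusted p = 0.00245). In YAP-S127A the locus was at 23.5, 22.8 and 18.2 FPKM, above all Control libraries. YAP-S127A against Control was 6.31-fold and not called (2.39, limma adjusted p = 0.187). With only the 6 libraries compared, FSTL1 was called there (limma adjusted p = 0.00265) and in YAP-2SA against YAP-S127A (limma adjusted p = 4.02e-05). Without YAP-S94A,S127A replicate 2 it was called in YAP-S127A against YAP-S94A,S127A (limma adjusted p = 0.000114). On the falling side of the list, ITGB8, an integrin chain that activates latent TGF-beta, was at 8.45, 6.58 and 8.98 FPKM in Control and at 1.29, 0.915 and 1.19 in YAP-2SA (-2.07 ± 0.15, limma adjusted p = 9.97e-07). EMILIN1, a matrix protein that restrains processing of the ligand precursor, fell from 30.9 to 33.5 FPKM in Control to 9.81 to 12.5 in YAP-2SA. GDF11, a related ligand, fell from 17.97 to 20.7 FPKM to 7.91 to 9.37. The YAP-S127A libraries overlapped Control for ITGB8 (6.03 to 7.75 FPKM) and GDF11 (14.8 to 19.8 FPKM). For EMILIN1 they lay below the Control libraries, at 26.3 to 29.9 FPKM (limma adjusted p = 0.252). None of these 3 genes was called in YAP-S127A against Control.

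Among receptors and co-receptors, 8 of 11 genes were tested. Of these, 0 were called higher and 2 lower in YAP-2SA against Control (7.59% and 7.86% of all loci), with a median difference of -0.09. BAMBI, a decoy receptor without kinase activity, was at 31.2, 29.0 and 31.4 FPKM in Control, at 25.0 to 25.8 in YAP-S127A and at 2.82, 1.82 and 2.37 in YAP-2SA. CD109, a co-receptor that dampens signaling, was at 21.8, 22.8 and 24.6 FPKM in Control, at 18.4 to 19.6 in YAP-S127A and at 7.16, 6.88 and 7.63 in YAP-2SA. For both genes the YAP-2SA libraries lay below all others. BAMBI fell by 3.25 ± 0.10 on the log2 scale (limma adjusted p = 1.49e-09) and CD109 by 1.55 ± 0.06 (limma adjusted p = 9.78e-09) in YAP-2SA against Control. In YAP-S127A against Control BAMBI gave -0.25 (limma adjusted p = 0.183) and CD109 -0.27 (limma adjusted p = 0.0230), and neither was called.

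Among SMADs and intracellular regulators, all 18 genes were tested. Of these, 3 were called higher and 1 lower in YAP-2SA against Control (7.59% and 7.86% of all loci), with a median difference of 0.02. PMEPA1, a membrane protein that sequesters receptor-activated SMADs, was at 31.6, 34.0 and 37.9 FPKM in Control and at 41.2, 38.3 and 44.2 in YAP-S94A,S127A. It was at 21.3, 20.1 and 22.6 in YAP-S127A and at 0.568, 0.497 and 0.602 in YAP-2SA. None of the 4 groups overlapped, and the gene entered the test through the 9 libraries outside YAP-2SA. PMEPA1 fell by 4.51 ± 0.08 on the log2 scale in YAP-2SA against Control (limma adjusted p = 5.58e-11), and in YAP-S127A against YAP-S94A,S127A it fell by 0.92 ± 0.08 (limma adjusted p = 4.34e-05), short of the fold threshold. SMAD6, the other inhibitory SMAD, went the opposite way, from 8.34, 6.35 and 6.59 FPKM in Control to 12.6, 9.44 and 14.4 in YAP-S127A and 24.3, 16.0 and 20.9 in YAP-2SA (1.39 ± 0.18 in YAP-2SA against Control, limma adjusted p = 9.94e-05). The ubiquitin ligases NEDD4L and SMURF2, which mark SMADs and receptors for degradation, were 2.12-fold and 2.05-fold higher in YAP-2SA than in Control, close to the fold threshold. Leaving out Control replicate 1 or YAP-2SA replicate 3 ended the call of NEDD4L, leaving out the library labelled Control replicate 3 or YAP-2SA replicate 2 that of SMURF2, and quantile normalization both.

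Among TGF-beta induced genes, 25 of 26 were tested. Of these, 6 were called higher and 9 lower in YAP-2SA against Control (7.59% and 7.86% of all loci), with a median difference of -0.27. COL1A1, a fibrillar collagen chain, was at 0.301, 0.236 and 0.428 FPKM in Control and at 0.204, 0.261 and 0.162 in YAP-S94A,S127A. It was at 8.42, 7.28 and 6.11 in YAP-S127A and at 36.3, 36.0 and 27.9 in YAP-2SA, so that the latter 2 groups stood apart from each other and from the rest. The difference was 4.70 ± 0.13 in YAP-2SA against Control (limma adjusted p = 8.91e-10) and 2.76 ± 0.13 in YAP-S127A against YAP-S94A,S127A (limma adjusted p = 5.88e-07). COL1A1 reached 1 FPKM, and so entered the test, only through the YAP-S127A and YAP-2SA libraries. COL1A1 is also on the list of 6 fibroblast markers, whose other 5 genes summed to 3.58 to 5.63 FPKM in Control, 4.23 to 5.37 in YAP-S94A,S127A, 6.48 to 7.31 in YAP-S127A and 10.9 to 15.02 in YAP-2SA. Of them PDGFRB was at 2.13 to 3.10 FPKM in Control and 8.11 to 12.1 in YAP-2SA, LUM at 1.13 to 1.79 and 1.91 to 2.86, and COL1A2, COL3A1 and DCN at 0.739 or less in every library, and the part of other cells in these values was not tested. PDGFB, a growth factor chain, and TAGLN, an actin-binding protein, rose by 2.51 ± 0.17 and 2.25 ± 0.13 on the log2 scale in YAP-2SA against Control (limma adjusted p = 7.38e-07 and 1.73e-07). PDGFB, at 0.844 FPKM or less in every Control and YAP-S94A,S127A library, likewise entered the test only through YAP-S127A and YAP-2SA.

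On the falling side of the same list stood ANGPTL4, a secreted regulator of lipoprotein lipase, NOX4, an NADPH oxidase, and TSC22D1, a transcriptional regulator. ANGPTL4 was at 3.81, 5.39 and 4.31 FPKM in Control and at 0.251, 0.519 and 0.247 in YAP-2SA (-2.04 ± 0.20, limma adjusted p = 1.26e-05), and it too entered the test only through the other groups. NOX4 was at 4.56, 4.88 and 6.72 FPKM in Control and at 0.400, 0.759 and 2.11 in YAP-2SA (-1.68 ± 0.27, limma adjusted p = 0.000463). TSC22D1 was at 91.7, 88.3 and 85.8 FPKM in Control and at 28.7, 33.4 and 32.7 in YAP-2SA (-1.46 ± 0.11, limma adjusted p = 1.22e-06). Control and YAP-2SA did not overlap for any of the 3 genes, and YAP-2SA replicate 3 was highest of its group for NOX4. NOX4 was also the 1 list gene called lower in YAP-S127A against YAP-S94A,S127A, at 2.76, 2.26 and 3.60 FPKM against 7.93, 5.81 and 7.39. There its limma adjusted p of 0.0301 lay between 0.0505 and 0.101 under 6 alternatives.

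**Figure D4:**
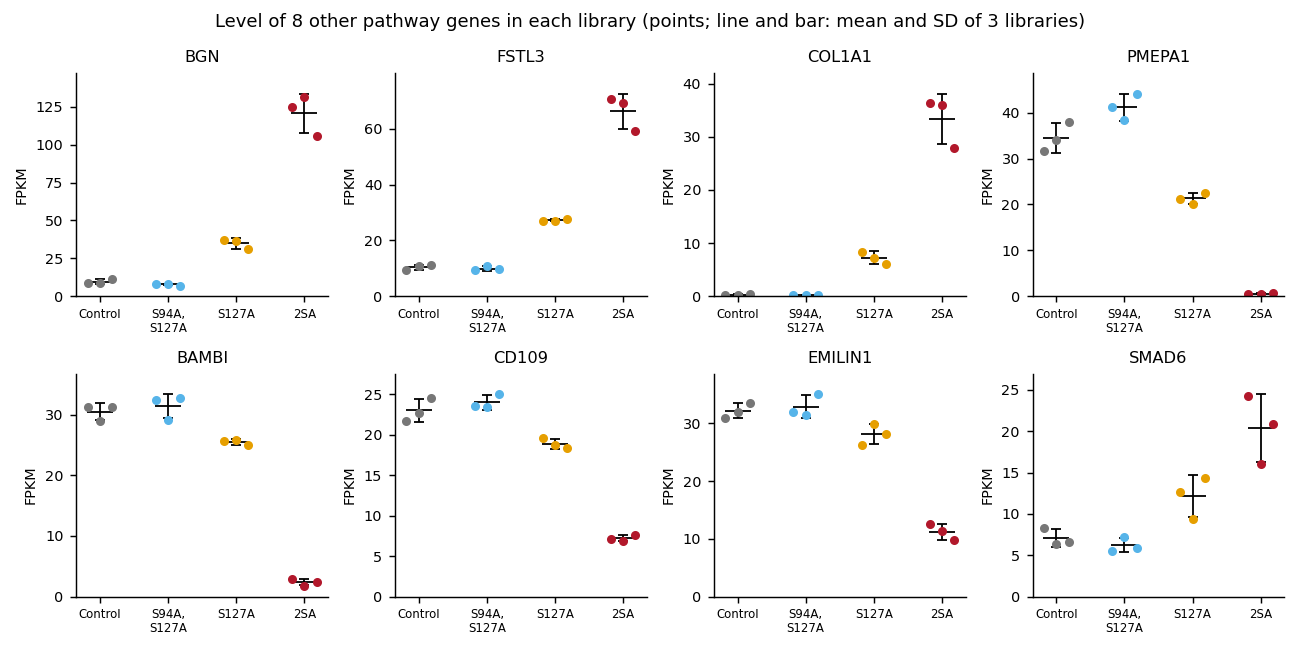
FPKM (y axis, from 0) of 8 other pathway genes in each of the 12 libraries, by group (x axis); the line and bar give the mean and SD of 3 libraries. BGN, FSTL3, COL1A1 and SMAD6 are highest in YAP-2SA and PMEPA1, BAMBI, CD109 and EMILIN1 lowest, with the YAP-S127A means between those of Control and YAP-2SA for all 8.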

How the data were processed

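RNA of 12 A375 samples was sequenced. The authors aligned the reads to hg19 and assembled transcripts, and the deposited table holds log2(FPKM + 1) values by locus. The submitters' processing notes list bcl2fastq 2.15.0, Bowtie2 2.0.0, TopHat2 2.0.4 and Cufflinks 2.0.2. The division of reads that align to several places and the use of strand are not given in the sources used here, so reads of TGFB1, TGFB2, TGFB3, INHBA and SMAD3 cannot be told apart from those of annotated genes of the opposite strand that share exon bases with them. TGFB2-OT1, on the same strand, shares 1371 of the 6050 exon bases of TGFB2, and its reads could not be separated by strand. Depth is unknown and limits the precision of low values by an unknown amount.

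Of 31588 entries 3 identical ones were removed. The 15055 loci that reached 1 FPKM in 3 or more libraries were tested with limma 3.58.1 (R 4.3.3), in a single fit of the 12 libraries with a mean for each group and empirical Bayes with an intensity trend. The fit was run on simulated data in which 200 loci of higher level were changed, so the low range of TGFB2 and TGFB3 was not covered. The libraries were not paired by replicate number in this fit. A two-sided exact permutation test of 3 against 3 libraries cannot go below p = 0.1, so only the fit across loci was used.

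All 10 genes were described. From each pathway list at most the 3 largest rises and 3 largest falls among called genes in YAP-2SA against Control were to be named, and for TGFB2 and INHBA the 5 loci with the highest Pearson's r. FST, FN1, ACTA2 and the ratio of FST and FSTL3 to INHBA fall outside that rule and were chosen after their values were seen. The genes and lists were chosen with earlier results of these data known. Coordinates are from GENCODE release 44 on GRCh37, promoters from RefSeq. Alternatives were a pseudocount of 0.1, no filter, a minimum of 5 FPKM, median-ratio scaling, quantile normalization, only the libraries compared, a replicate block, no intensity trend, and each library left out. Their use on the pathway lists was chosen after seeing the data. Figures were drawn with matplotlib 3.10.9.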

Additional observations from a re-analysis of the deposited data

How the results depend on the processing

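Depth is unknown, so the low values of TGFB2 and TGFB3 cannot be given a counting error, and 3 libraries a group limit all tests. Among the log2 differences of the 10 genes in the 5 comparisons, 611 values under the alternatives kept direction and side of the threshold, 39 lost significance, 5 gained it and 26 changed sign. A minimum of 5 FPKM removes TGFB2, TGFB3 and TGFBR1, which left 1 called gene in YAP-2SA against Control and 0 in the 3 other comparisons with a called gene, and 1 gene with an adjusted p under 0.05 both in YAP-S127A against Control and in YAP-S127A against YAP-S94A,S127A. With only the 6 libraries compared, TGFB2 did not pass the filter in YAP-S127A against Control or against YAP-S94A,S127A, and 0 genes were called and 0 had an adjusted p under 0.05 in either. With no filter on low values, 1 gene was past the adjusted p in YAP-S127A against YAP-S94A,S127A. The cause of other changes was not tested. Same-numbered libraries deviated from their group means with correlations of -0.149 to 0.163, and differently numbered ones with -0.119 to 0.188. The main fit did not pair libraries by replicate number, and pairing of single genes was not tested. With the replicate block, 6828 in place of 6375 loci were past the adjusted p in YAP-2SA against Control. In YAP-S94A,S127A against Control there were 24 in place of 27. The counts of called genes were 3, 1, 0, 1 and 1, as without the block. In YAP-2SA against YAP-S127A 9 in place of 8 genes were past the adjusted p, TGFBR2 being added (limma adjusted p = 0.0127).

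Leaving out 1 library, the called genes ranged from 1 to 2 in YAP-2SA against YAP-S127A (2 without YAP-S127A replicate 2 or YAP-2SA replicate 2, TGFB3 being added) and from 1 to 2 in YAP-S127A against YAP-S94A,S127A (2 without YAP-S127A replicate 2, INHBA being added). Genes past the adjusted p ranged from 6 to 9 in YAP-2SA against Control and from 6 to 7 in YAP-2SA against YAP-S127A, where 8 passed with all libraries in each, from 1 to 3 in YAP-S127A against Control (1 without Control replicate 1 or 2 or YAP-S127A replicate 3, SMAD3 being lost) and from 1 to 2 in YAP-S127A against YAP-S94A,S127A (2 only without YAP-S127A replicate 2). All sign changes were of differences that were not past the threshold. Their leave-one-out ranges in YAP-S127A against Control were -0.038 to 0.18 for TGFBR1, -0.106 to 0.14 for TGFBR2, -0.0205 to 0.129 for SMAD7 and -0.149 to 0.024 for TGFBI. In YAP-S94A,S127A against Control they were -0.0307 to 0.0558 for TGFB1, -0.0705 to 0.0235 for TGFB3, -0.0382 to 0.0878 for TGFBR1, -0.056 to 0.19 for TGFBR2, -0.0215 to 0.12 for SMAD7 and -0.085 to 0.088 for TGFBI. In YAP-2SA against YAP-S127A the range was -0.0632 to 0.155 for TGFBR1. In YAP-S127A against YAP-S94A,S127A they were -0.0743 to 0.144 for TGFBR1, -0.141 to 0.0127 for TGFBR2 and -0.0642 to 0.0748 for SMAD7, and SMAD7 was also at -0.000691 with median-ratio scaling and at -0.0059 with quantile normalization.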
